A study of Mus musculus with 5 samples.

Results

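The collagen and laminin genes are the chains from which the fibres and sheets of the extracellular matrix are built. They were taken here as the RefSeq protein-coding genes of the mouse build mm10 whose symbols are those of a collagen chain (Col, a number, the letter a, a number) or of a laminin alpha, beta or gamma chain. That gave 55 genes, 44 of collagen and 11 of laminin, out of 21774 protein-coding genes with an annotated transcript. For each of them, the places where chromatin is open to the nuclease DNase I, its hypersensitive sites (DHSs), were followed along the path from mesoderm to macrophages. A DHS within 1 kb of any start site (TSS) of a gene was called its promoter site. Other DHSs were assigned to the gene with the nearest TSS, up to 100 kb away.

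The cells came from an embryonic stem cell line of mouse strain 129 with a GFP reporter of Brachyury (Bry), differentiated in culture and sorted on surface markers. MES was mesoderm, sorted as Bry:GFP+ cells without Flk1, and HB the hemangioblasts, which were Bry:GFP+ and had gained Flk1. HE, the hemogenic endothelium, was Bry:GFP+, Tie2+ and cKit+ but CD41-. HP stands for CD41+ hematopoietic progenitors and MAC for CD11b+ macrophages. Each stage was 1 list of sites, and the MAC label names 2 replicates together, so n = 1 per stage, no replicate error can be given and no difference between stages was tested. All values are of differentiated cells from 1 strain in culture, not of embryos.

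Collagens are helical chains, most of them secreted. The fibril-forming types give tissues their tensile strength, and type IV forms the network of basement membranes, the thin sheets under epithelia and around vessels. Laminins are cross-shaped assemblies of an alpha, a beta and a gamma chain that start basement membrane assembly and bind integrins on cells. Endothelial cells lay down and sit on such a membrane, whereas blood cells circulate without one.

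The lists held between 17734 sites (HP) and 37456 sites (MAC), with no read counts beside them, so depth is unknown and a gene without a site is one for which none was listed. Median widths ran from 600 bp in MAC to 1200 bp in HE. The genes of the sorting markers and of each lineage were looked up in the same way. Promoter sites of the mesodermal gene T were listed in MES and HB, those of the endothelial genes Tek and Cdh5 in HE alone, that of Itga2b (CD41) in HE and HP, and those of Itgam (CD11b), Csf1r and Adgre1 in MAC alone. Kit had a promoter site in every stage but MAC and Mesp1 in MES, HB and HE. Kdr (Flk1) had one in all 5 stages, also in the Flk1- MES, Gfi1b only in MAC and Gata1 in none, so neither of those blood genes marked HP.

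Sequences of promoters and regions that differ in the stages at which sites were listed are shown first, as examples. The first pair are the 150 bases upstream of the TSS of Col1a2, a chain of type I collagen, and of Col3a1, the chain of type III collagen of vessel walls, which were chosen after the patterns were seen because the former had a promoter site in MES, HB and HE and the latter in no stage. They are from the RefSeq promoter table of mm10, on the + strand, at chr6:4505468-4505617 and chr1:45311388-45311537, and capitals mark the dinucleotide CG.
Col1a2 promoter: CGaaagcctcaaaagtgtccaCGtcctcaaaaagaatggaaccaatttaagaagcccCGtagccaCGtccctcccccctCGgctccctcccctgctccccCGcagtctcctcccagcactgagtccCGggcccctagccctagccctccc
Col3a1 promoter: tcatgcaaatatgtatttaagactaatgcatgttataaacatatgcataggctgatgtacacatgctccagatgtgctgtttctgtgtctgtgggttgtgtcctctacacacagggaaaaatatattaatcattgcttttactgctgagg
The Col1a2 stretch holds CG 7 times and the Col3a1 stretch 0 times, and neither gene falls in the class of CpG-rich promoters defined below. Of the 32851 promoters in that table, 37.9% have CG at least 7 times in the same 150 bases and 85.7% at least 1 time, and the medians are 4 over all promoters and 6 over the 44 promoters of the 40 collagen and laminin genes it covers. Of those 44 promoters 47.7% have CG at least 7 times and 88.6% at least 1 time, so by this count the family is not below all promoters. The MES, HB and HE sites of Col1a2, of 600, 800 and 1100 bp, all cover the stretch shown.

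The next 3 sequences are the 200 bases around the middle of intronic regions that were listed in more than 1 stage and in a different combination each. Each is the + strand of mm10 and was chosen after the patterns were seen. They lie in an intron of Col13a1 (chr10:61929094-61929293), of Col4a2 (chr8:11322884-11323083) and of Col15a1 (chr4:47293861-47294060). Capitals mark exact matches, on either strand, to the letters CATTCC (TEAD), TGTGGT (RUNX) and TGANTCA (AP1), none of which contains another.
Col13a1 intron, open in HB, HE and HP: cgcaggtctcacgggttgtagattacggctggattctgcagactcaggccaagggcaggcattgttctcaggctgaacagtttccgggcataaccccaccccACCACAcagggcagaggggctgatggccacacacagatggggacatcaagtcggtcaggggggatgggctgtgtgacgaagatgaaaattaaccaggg
Col4a2 intron, open in HE and HP: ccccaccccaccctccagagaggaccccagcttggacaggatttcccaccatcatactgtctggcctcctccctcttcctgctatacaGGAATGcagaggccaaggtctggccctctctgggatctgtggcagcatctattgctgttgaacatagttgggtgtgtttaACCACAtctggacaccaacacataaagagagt
Col15a1 intron, open in HP and MAC: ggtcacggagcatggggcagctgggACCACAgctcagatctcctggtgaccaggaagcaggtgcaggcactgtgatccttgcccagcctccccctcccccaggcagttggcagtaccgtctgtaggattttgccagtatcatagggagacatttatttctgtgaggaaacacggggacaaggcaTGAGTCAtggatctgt
Over the central 200 bases of all regions beyond 1 kb of a TSS, the letters of RUNX are found in 18.7%, of AP1 in 15.7% and of TEAD in 13.4%. A match describes the letters and is not evidence of binding.

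To find out how many of these genes had an accessible promoter at each stage, promoter sites were counted by gene. Of the 55 genes, 25 had one in MES (45.5%), 25 in HB (45.5%) and 24 in HE (43.6%). Only 9 had one in HP (16.4%), and 5 in MAC (9.09%). The counts of the first 3 stages lay within 1 gene of each other and those of HP and MAC were lower. When sites narrower than the median of their list were dropped, the counts from MES to MAC were 11, 14, 21, 6 and 1, with HE above MES and HB (over all genes 42.9, 48.1, 51.9, 37.7 and 40.1%). Each list is of a bulk population, so a site open in some cells and one open weakly in all cannot be told apart. Over all 21774 genes the shares from MES to MAC were 55.5, 57.1, 59.9, 48.6 and 48.7%. The 95% Wilson interval of the collagen and laminin share, which covers counting error only, ran from 33.0 to 58.5% in MES and HB and held the share over all genes there. In HE it ran from 31.4 to 56.7%, in HP from 8.86 to 28.3% and in MAC from 3.95 to 19.6%, and in these 3 stages it lay below the share over all genes. The HP list was the shortest and the MAC list the longest of the 5, and with each list cut to its widest 17734 sites, the length of the HP list, the counts were 19, 22, 21, 9 and 1 (over all genes 52.6, 52.5, 51.7, 48.6 and 38.7%). At equal list length the count was lower in HP than in HE. That cut kept HE sites from 1200 bp upwards and HP sites from 100 bp, and whether list length or depth plays a part was not tested.

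**Figure D1:**
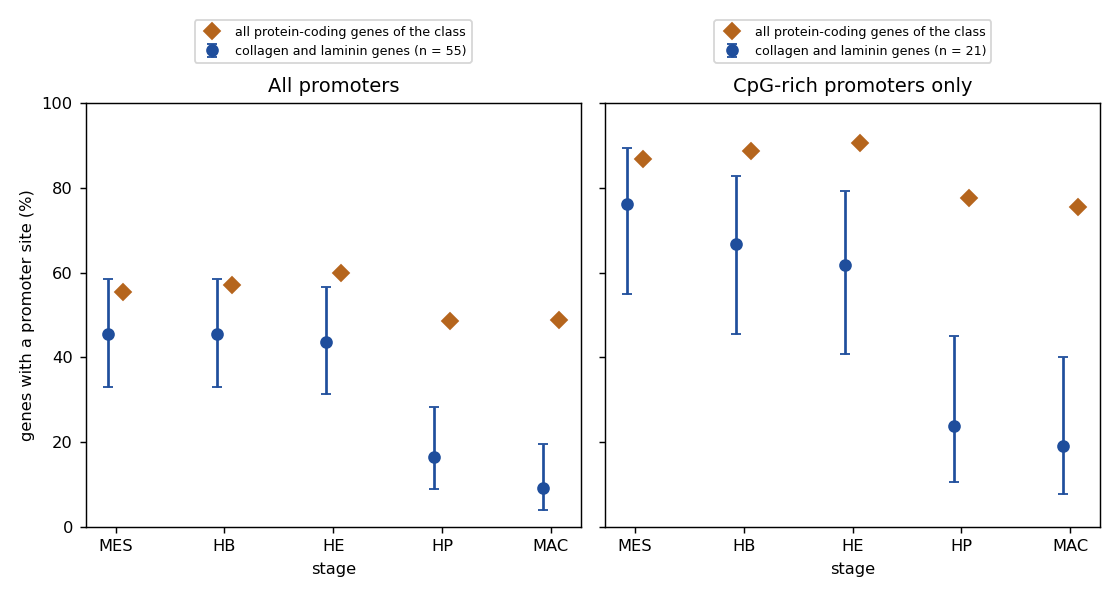
Share of genes with a promoter site (y axis, percent) in each stage (x axis), for all promoters on the left and CpG-rich promoters on the right. Circles are the collagen and laminin genes with 95% Wilson intervals and diamonds are all protein-coding genes of the class. On the left the circles fall from 43.6% in HE to 16.4% in HP and 9.09% in MAC, and the diamonds from 59.9% to 48.6 and 48.7%.

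CpG-rich promoters, which are open in most cell types, were less frequent in this family. The class was defined on 500 bp around each TSS, by a GC share from 0.5 upwards together with an observed CpG count at or above 0.6 of the expected one, and 21 of the 55 genes had one (38.2%), against 55.0% of all genes. From MES to MAC, promoter sites were listed for 16, 14, 13, 5 and 4 of these 21 genes, or 76.2, 66.7, 61.9, 23.8 and 19.0%. Over all genes with a CpG-rich promoter the shares were 86.7, 88.8, 90.6, 77.7 and 75.5%. The Wilson interval of the family's share ran from 54.9 to 89.4% in MES and held the share over all genes of the class. It lay below that share in HB (45.4 to 82.8%), HE (40.9 to 79.2%), HP (10.6 to 45.1%) and MAC (7.67 to 40.0%). Of the 34 other genes 9, 11, 11, 4 and 1 had a promoter site, or 26.5, 32.4, 32.4, 11.8 and 2.94%. Over all genes of that kind the shares were 17.4, 18.4, 22.3, 13.1 and 15.9%. The interval of the family's share held that value in MES, HE and HP, lay above it in HB (19.1 to 49.2%) and below it in MAC (0.521 to 14.9%).

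Followed from stage to stage, the promoters changed at every step. Of 25 promoters open in MES, 20 were open in HB (80.0%, Wilson interval 60.9 to 91.1%, against 96.2% of all genes open in MES) and 5 others were gained. Of 25 open in HB, 19 were open in HE (76.0%, interval 56.6 to 88.5%, against 94.8%), again with 5 gained. From HE to HP 9 of 24 were kept (37.5%, Wilson interval 21.2 to 57.3%, against 79.9%) and 0 were gained. From HP to MAC 3 of 9 were kept (33.3%, interval 12.1 to 64.6%, against 89.4%), and Col11a2 and Lama3 were gained, each with a site of 200 bp. Neither gain was found when each list was cut to its widest sites, and that of Col11a2 was also absent with a reach of 500 bp or with TSS of curated mRNAs. In number, most promoters were lost from HE to HP (15, and 2623 over all genes), while the share kept was 37.5% at that step and 33.3% from HP to MAC, where 6 of 9 were lost.

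The combination of stages differed from that of genes at large. Only Col23a1 and Lamc1 had a promoter site in all 5 stages, 2 of 55 genes (3.64%), against 42.0% of all genes. In contrast, 25 genes (45.5%) had one in MES, HB or HE and in neither HP nor MAC, against 11.8%. Genes without a promoter site in any stage were as frequent as elsewhere, 19 of 55 (34.5%) against 34.3%. The remaining 9 genes had a promoter site in HP or MAC but not in every stage. Genes of the family without a promoter site numbered 31 when sites narrower than the median were dropped and 25 with the cut lists. No share over all genes was computed for these 2 settings.

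**Figure D2:**
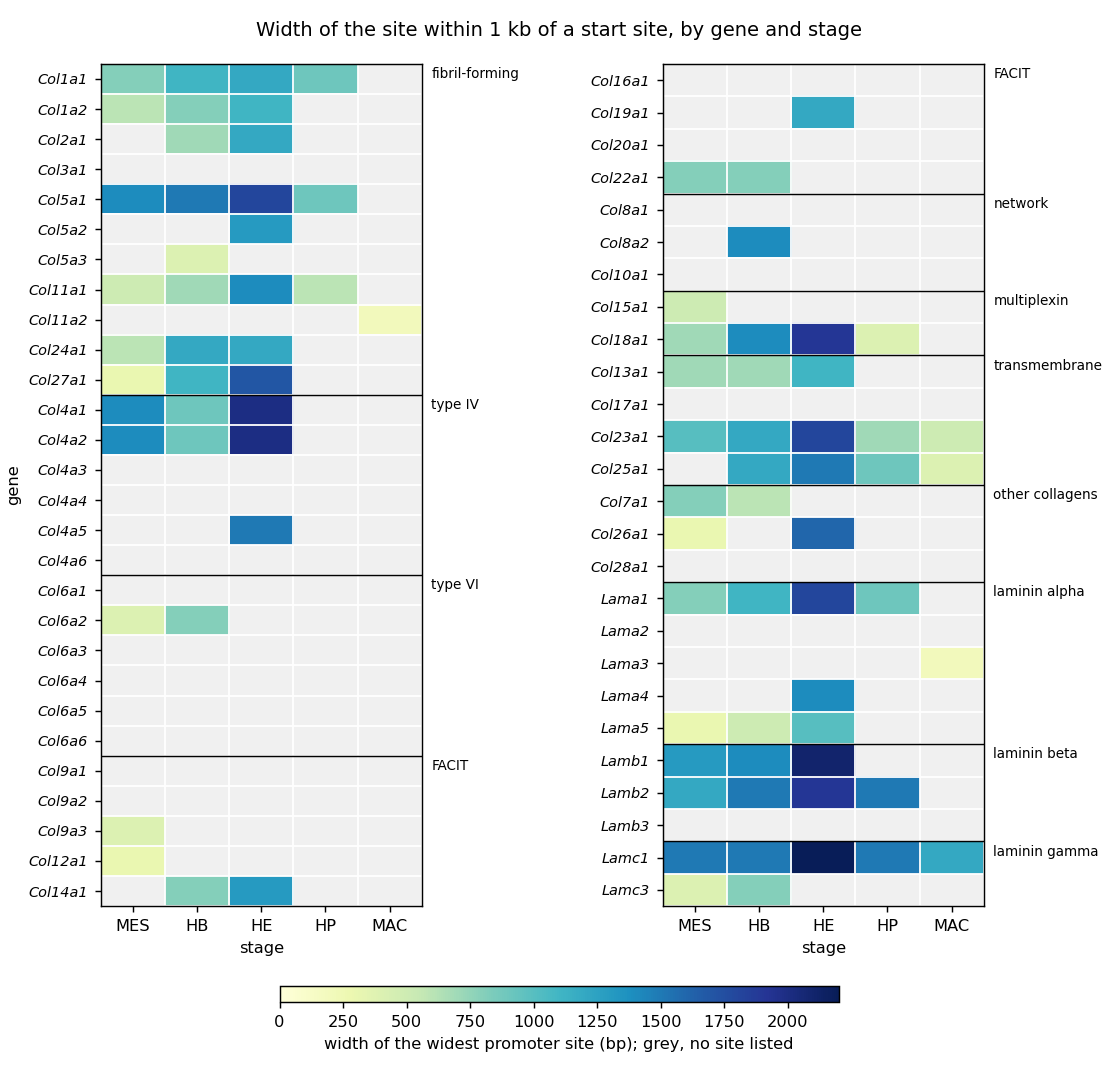
Width in bp (colour) of the widest promoter site of the collagen and laminin genes (rows, ordered by family; 1 gene is left out) in each of the 5 stages (columns), with grey where no site was listed. The HP and MAC columns hold 9 and 5 coloured cells, and the widest site is that of Lamc1 in HE at 2200 bp.

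Among the 11 genes of fibril-forming collagens, 6 had a promoter site in MES, 8 each in HB and HE, 3 in HP and 1 in MAC. Col1a1, the other chain of type I collagen, had sites of 800, 1100, 1200 and 900 bp in MES, HB, HE and HP, which began 340 to 693 bp downstream of its TSS, and none in MAC. Col5a1, a chain of the type V collagen that starts fibrils, had sites of 1400, 1500, 1800 and 900 bp in the same stages. Its partner Col5a2 had a single promoter site, of 1300 bp in HE. Col11a1, of cartilage collagen type XI, was like Col5a1 with 500, 700, 1400 and 600 bp. Col24a1 and Col27a1 were open in MES, HB and HE, Col2a1 of cartilage in HB and HE, and Col5a3 in HB with a site of 400 bp. The MAC count was Col11a2, from a site of 200 bp at 604 bp from an internal TSS. Col3a1 had no promoter site, and its only assigned sites were 3 in MAC, 1 of them in an intron of Col5a2.

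Type IV collagen is made in all basement membranes from Col4a1 and Col4a2, which lie head to head on chromosome 8 (Col4a1 at chr8:11198423-11312889 on the - strand, Col4a2 at chr8:11312805-11449287 on the + strand). They share 1 promoter site, 1400, 900 and 2000 bp wide in MES, HB and HE (chr8:11311924-11313923), and none was listed in HP or MAC. No other pair in the family shared a promoter site with each other or with another gene. Of the tissue-restricted chains, Col4a5 had a site of 1500 bp in HE, and Col4a3, Col4a4 and Col4a6 had none.

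Of the 6 genes of type VI collagen, which forms beaded microfibrils, Col6a2 alone had a promoter site, of 400 bp in MES and 800 bp in HB. The FACIT group, collagens that attach to the surface of fibrils, had 3 of 9 open in MES (Col9a3, Col12a1 and Col22a1), 2 in HB, 2 in HE (Col14a1 and Col19a1) and 0 in HP and MAC. Of 3 genes of network-forming collagens Col8a2 had a promoter site, in HB, at 944 bp from a TSS. That call rests on the limit of 1 kb, as its sites in MES and HE lay at 1146 and 1336 bp. Col7a1, the collagen of anchoring fibrils, had sites of 800 bp in MES and 600 bp in HB. Col26a1 had promoter sites of 300 bp in MES and 1600 bp in HE. Among the 4 transmembrane collagens, which are anchored in the cell membrane, 2 were open in MES, 3 in HB and HE, and 2 in HP and MAC. Col23a1 had sites of 1000, 1200, 1800, 700 and 500 bp from MES to MAC, Col25a1 of 1200, 1500, 900 and 400 bp from HB to MAC, and Col13a1 of 700, 700 and 1100 bp in MES, HB and HE. The HE site of Col13a1 lay 798 bp from the nearest TSS, whereas those of MES and HB covered it.

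Col18a1, a basement membrane collagen from which endostatin is released, had promoter sites of 700, 1400, 1900 and 400 bp in MES, HB, HE and HP and none in MAC (gene at chr10:77052178-77166530, - strand). Its relative Col15a1 had 1 promoter site, of 500 bp in MES.

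Of the 11 laminin genes, 7 had a promoter site in MES, 6 each in HB and HE, 3 in HP and 2 in MAC. Lamc1 encodes the gamma chain found in most laminins (chr1:153218922-153332786, - strand). Its promoter sites were 1500, 1500, 2200, 1500 and 1200 bp wide from MES to MAC, and all 5 covered the TSS. Lamb1, the beta chain that pairs with it in embryonic laminins (chr12:31265146-31329644, + strand), had sites of 1300, 1400 and 2100 bp in MES, HB and HE and none in HP or MAC. Lama1, the alpha chain of the earliest embryonic basement membranes (chr17:67697127-67822645, + strand), had sites of 800, 1100, 1800 and 900 bp in MES, HB, HE and HP. Lamb2 followed the same stages with 1200, 1500, 1900 and 1500 bp.

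The alpha chains of vessel walls differed from each other. Lama5 (chr2:180176373-180225904, - strand) had narrow promoter sites of 300, 500 and 1000 bp in MES, HB and HE. Lama4, whose chain is a main laminin of endothelial basement membranes (chr10:38965515-39110188, + strand), had no site of any kind in MES, HB, HP or MAC. In HE it had 3, a promoter site of 1400 bp, 1 of 1000 bp in an intron and 1 of 600 bp upstream. Chains of the epithelial laminin that anchors skin were apart from these, since Lama3 had a promoter site in MAC alone (200 bp) and Lamb3 in no stage. Lamc3 was open in MES (400 bp) and HB (800 bp), and Lama2, the alpha chain of muscle, in no stage.

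Widths grew towards HE in this family as in the lists. From MES to MAC, the median width of the promoter sites was 650, 850, 1500, 900 and 400 bp, against 1000, 1200, 1600, 1100 and 800 bp for the promoter sites of all genes. Of 90 pairs of a gene and a promoter site, the site covered an annotated TSS in 74. The limit of 1 kb fell between the HB site of Col8a2 at 944 bp, the outermost gene counted as open, and its MES site at 1146 bp and the MES site of Col2a1 at 1151 bp, which were not counted. The HE promoter site of Col4a5 began 1221 bp from a TSS of Col4a6 and was counted for Col4a5 alone.

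Beyond the promoters, collagen and laminin genes had 39 sites in MES, 50 in HB and 95 in HE, followed by 32 in HP and 49 in MAC. With the promoter sites added, 63, 76, 118, 41 and 54 sites were assigned, or 0.287, 0.307, 0.354, 0.231 and 0.144% of each list, highest in HE and lowest in MAC. These genes are long, with a median length of 114 kb against 17.2 kb for all genes, and they take up more genome, so sites were also counted per Mb of assigned genome (6.78 Mb in all). From MES to MAC, the density beyond 1 kb was 5.75, 7.37, 14.0, 4.72 and 7.22 per Mb. Over all genes it was 5.60, 6.75, 10.6, 4.31 and 14.4 per Mb. The ratio of the former to the latter was 1.32 in HE and 0.50 in MAC, and between 1.03 and 1.09 in the other stages. Counting intervals at 95% (exact Poisson) were 11.3 to 17.1 per Mb in HE and 5.34 to 9.55 per Mb in MAC, and neither held the density over all genes.

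These ratios were recomputed for genes of at least 50 kb and without the loci that held most sites, alternatives chosen after seeing the data. Among genes of at least 50 kb, 37 of them collagen or laminin genes, the ratio was 1.31 in HE and 0.451 in MAC. Without Col4a1 and Col4a2 the HE ratio was 1.14, with an interval of 9.6 to 15.1 per Mb that held the density over all genes. Without Col18a1 it was 1.22, with an interval of 10.4 to 16.0 per Mb that held it too. As these loci were left out because they held most sites, a lower HE ratio was given in advance. The HE density stayed above that over all genes in both cases, at 12.1 and 12.9 against 10.6 per Mb. In MAC the ratio was 0.428 without Col15a1. HE sites were wide, and each list was also cut to as many of its widest sites as HP had in all. From MES to MAC 45, 50, 58, 41 and 17 sites were then assigned to the family, with HE first by a smaller margin. These counts include promoter sites, and the density ratios were not recomputed with the cut lists.

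**Figure D3:**
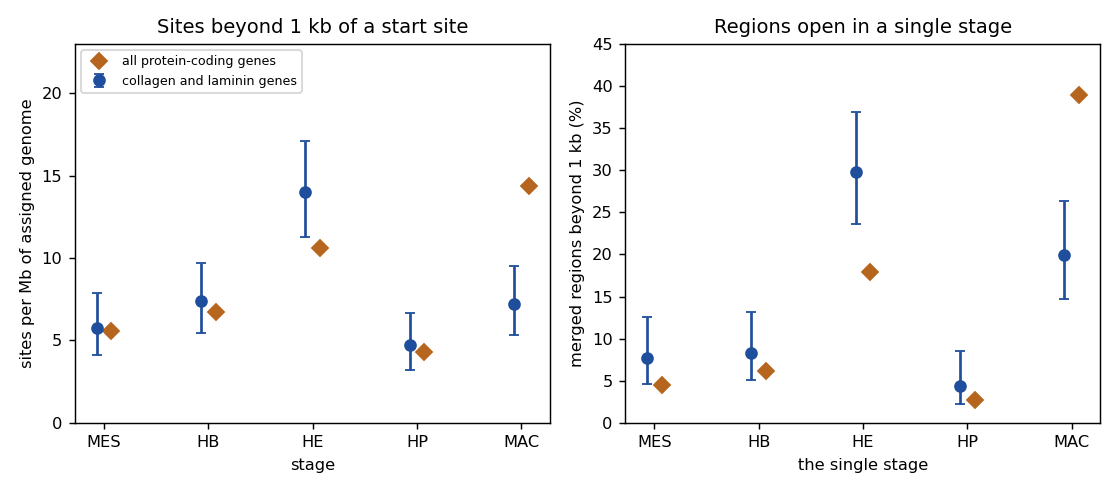
Left, sites beyond 1 kb of a TSS per Mb of assigned genome in each stage, with exact Poisson intervals for the collagen and laminin genes (circles) and the value of all genes (diamonds). Right, percent of merged regions beyond 1 kb that were open in that stage alone, with Wilson intervals; circles lie above diamonds in HE (29.8 against 17.9%) and below them in MAC (19.9 against 38.9%).

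To see which sites recurred, windows of 500 bp around the middles of sites were merged across stages where they overlapped by 25% of that length or more, which gave 225 regions for these genes. Of the 181 beyond 1 kb of a TSS, 127 were open in a single stage (70.2%), as were 70.3% of such regions over all genes. The stage differed. Regions open in HE alone were 54 (29.8%, Wilson interval 23.6 to 36.9%), against 17.9% over all genes, and regions open in MAC alone were 36 (19.9%, interval 14.7 to 26.3%), against 38.9%. Regions open in all 5 stages were 2 of 181 (1.10%, against 3.13%). Because only the windows were compared, a wide HE site can overlap a site of another stage and still count as HE alone. With the deposited intervals merged instead, 61% of the family's regions, promoters included, were open in a single stage, against 65.8% with windows. The shares of each single stage and the shares kept between stages were not recomputed in that way. By place, 124 of the 181 were in an intron of a collagen or laminin gene, 2 in an intron of another gene and 50 between genes (27.6%). Introns thus held 69.6%, against 49.1% of such regions over all genes. As these genes are long, a comparison with genes of at least 50 kb was added after seeing the data, where introns held 75.2% of 145 regions of the family (interval 67.6 to 81.5%) and 67.1% of all 19877.

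The same regions were followed from stage to stage. Of 38 open in MES, 22 were kept in HB (57.9%, interval 42.2 to 72.1%, against 68.7%), and of 50 open in HB, 22 were kept in HE (44.0%, interval 31.2 to 57.7%, against 46.6%). Of 94 open in HE, 20 were kept in HP (21.3%, Wilson interval 14.2 to 30.6%, against 27.5%). Of 32 open in HP, 9 were kept in MAC (28.1%, interval 15.6 to 45.4%, against 43.9%). The share kept was below that of all regions at all 4 steps, and at each step its interval held that value. Of the 94 regions open in HE, 72 had newly opened since HB (76.6%, interval 67.1 to 84%), against 70.6% of all regions open in HE. Newly opened regions were 28 of 50 in HB (56.0%, against 43.3%), 12 of 32 in HP (37.5%, against 31.2%) and 40 of 49 in MAC (81.6%, against 87.0%), and the intervals held the share over all regions in these stages and in HE.

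The genes with most sites differed between stages. Col13a1 and Col26a1 had most in MES (5 each), followed by Col18a1 and Lama5 with 4 each. In HB Col13a1, Col18a1 and Lama5 had 6 each. HE was led by Col18a1 with 10, Col4a2 with 9, and Col4a1 and Col5a1 with 8 each. HP was led by Col18a1 and Col4a2 with 6 each, although Col4a2 had no promoter site there. MAC was led by Col15a1 with 8, Lama3 with 5 and Lamc1 with 4. At the other end, 7 genes had no site assigned in any stage, a count for which no value over all genes was computed.

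The locus of Col4a1 and Col4a2 had 3, 6, 16, 7 and 3 sites from MES to MAC, which covered 2500, 4500, 21400, 5300 and 1900 bp. HE stood above the other stages in number and in bases. They formed 25 regions, with 15 in introns of Col4a1 and 9 in introns of Col4a2. Of these regions 11 were open in HE alone, a pattern held by 17.1% of all regions. As regions were called on windows of 500 bp, a wide HE site can overlap sites of other stages and still count as HE alone. The HE site of 2300 bp, for example, covers HP sites of 900 and 600 bp and an HB site of 500 bp. The 5′ ends of the genes overlap, with the TSS of each inside the other, so regions within Col4a1 lie nearer the TSS of Col4a2 and the reverse, and the pair is read here as 1 locus. The Col4a2 intron sequence shown above is 1 of its regions, with sites of 1300 bp in HE and 900 bp in HP. All 7 HP sites lay outside the shared promoter.

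Col18a1 had 4, 6, 10, 6 and 3 sites from MES to MAC, in 17 regions that lay in its introns, at its promoter and upstream of it. Col15a1 had no site in HB or HE and 1 in HP. Its 8 MAC sites were all intronic and 200 to 700 bp wide, 7 of them in MAC alone, and the other is the Col15a1 sequence shown, with sites of 900 bp in HP and 700 bp in MAC.

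**Figure D4:**
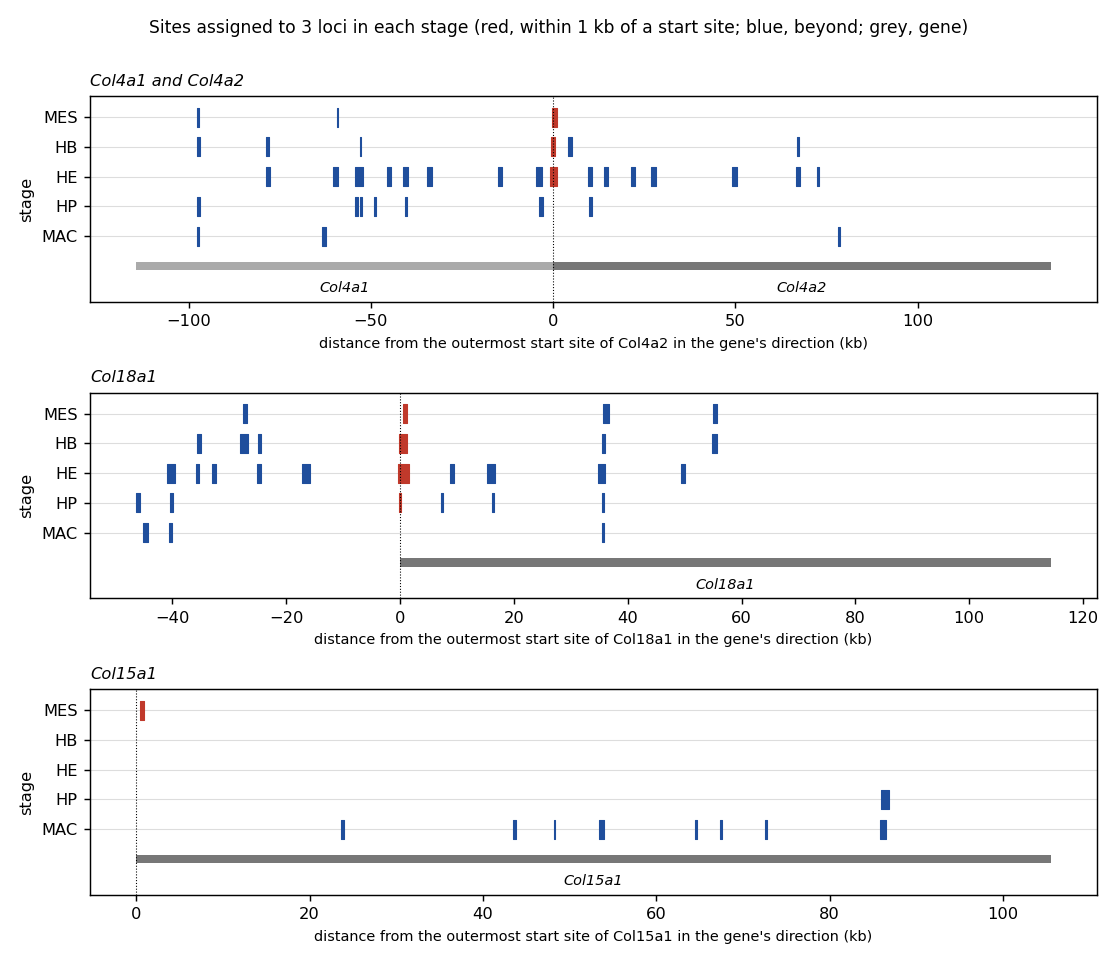
Sites assigned to Col4a1 and Col4a2, Col18a1 and Col15a1 in each stage (rows), drawn to scale in kb from the outermost TSS of the gene named on the axis; red marks promoter sites, blue other sites and grey bars the genes. HE has the most sites at the first 2 loci (16 and 10) and MAC at Col15a1 (8).

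The letters of 7 motifs were searched on both strands in the 500 bp around the middle of the regions beyond 1 kb. They were those of TEAD, RUNX and AP1 given above, AGATAA for GATA factors, GAGGAAG for PU.1, ACAATGG for SOX factors and CCNCTAG, which is part of the CTCF motif. TEAD was found in 33.1% of the 181 collagen and laminin regions against 29.0% of all 44130 regions, GATA in 28.7 against 26.5%, RUNX in 40.9 against 37.5% and AP1 in 29.3 against 26.9%. PU.1 was found in 24.3 against 28.5%, SOX in 10.5 against 7.44% and CTCF in 17.7 against 18.6%. By stage, GATA ranged from 13.2% of the MES regions to 40.0% of the HB regions, against 19.5 and 29.2% of all regions in those stages. AP1 ranged from 13.2% in MES to 42.9% in MAC, against 16.0 and 33.1%. In all 35 combinations of a motif and a stage, the Wilson interval of the collagen and laminin share held the share over all regions.

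Genes that act with collagens and laminins were read in the same way. Of 53 such genes, 33 had a promoter site in MES (62.3%), 38 in HB (71.7%) and 37 in HE (69.8%), and fewer had one in HP (19, 35.8%) and MAC (23, 43.4%), to be read against the shares over all genes given above. Of 22 genes for collagen synthesis and processing, 17, 19, 18, 10 and 11 were open from MES to MAC. P4ha1, a subunit of prolyl hydroxylase, and Plod3, a lysyl hydroxylase, were open in all 5 stages, and Serpinh1, the collagen chaperone, in all but MAC. Of 6 basement membrane partners 5, 4, 5, 3 and 3 were open. Hspg2 (perlecan), Agrn (agrin) and Nid2 (nidogen) were open throughout, Sparc, which binds collagen, in MES, HB and HE, and Nid1 in no stage. Of 15 receptors, 8, 10, 9, 5 and 5 were open, with Itgb1, the integrin beta chain shared by most matrix receptors, and Dag1, dystroglycan, in all 5 stages. Lair1, an inhibitory collagen receptor of leukocytes, was open in MAC alone. Of 10 proteases and inhibitors, 3, 5, 5, 1 and 4 were open. Mmp8 and Mmp12, a collagenase and the macrophage elastase, were open in MAC alone, and Mmp14, a membrane-bound collagenase, in MES, HB and HE. CpG-rich promoters were more frequent in these lists than in the collagen and laminin genes, at 32 of 53 genes (60.4%) against 38.2%. In MAC, promoter sites were listed for 17 of the 32 (53.1%) and 6 of the other 21 (28.6%), beside 19.0 and 2.94% of the collagen and laminin genes of the same classes and 75.5 and 15.9% of all genes.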

How the data were processed

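DNaseI-seq sites were analysed in 5 stages, with 1 list each. According to the study's methods, the authors trimmed reads with CutAdapt, aligned them to mm10 with Bowtie, discarded duplicates using Picard, and DFilter called the sites. The labels name Bowtie and HOMER, and no versions are given in the sources used here. Per deposited site a list gives its start and end position in bp, with neither score nor read count, so depth, which limits what could be listed, is unknown.

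TSS were the 58453 positions of all RefSeq transcripts of protein-coding genes on GRCm38.p6, which has the same primary chromosomes as mm10. A promoter site was called from the nearest edge of the interval, and other sites were assigned by its middle. Shares carry 95% Wilson intervals and densities exact Poisson intervals, for counting error only. The assignment and merging were tested on simulated data. Genes named in detail were the main basement membrane chains, every gene with promoter sites in 1 to 4 stages and the 3 genes with most sites in each stage, ties kept. Results of 1 gene enter the counts and are not reported here by name. The members and lists were chosen with earlier results of these data known. Alternatives were other reaches, TSS sets, widths, list lengths and merging rules. Python 3.11.15, NumPy 2.4.6, SciPy 1.17.1, pysam 0.24.0 and Matplotlib 3.10.9 were used.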

Additional observations from a re-analysis of the deposited data

How the results depend on the processing

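Of 66 alternative values for 14 results, 50 stayed within 1.5 times the reported value or, for the share of regions in a single stage, within its interval. A reach of 500 bp or 2 kb, TSS of curated mRNAs, a limit of 50 kb, assignment by gene body and the other merging rules were among these in every case. Dropping sites narrower than the median of their list gave promoter sites at 11, 14, 21, 6 and 1 genes from MES to MAC (over all genes 42.9, 48.1, 51.9, 37.7 and 40.1%). At that setting 1 gene had one in all 5 stages and 31 genes in no stage. Dropping them left 21, 30, 58, 11 and 19 assigned sites from MES to MAC. Cutting each list to its widest 17734 sites left 50 in HB, 58 in HE and 17 in MAC, and 130 regions. It left promoter sites at 1 gene in MAC, where the share over all genes fell from 48.7 to 38.7%, and at 1 gene in all 5 stages. In both cases fewer sites entered. Promoter stages changed for 5 of 35 named genes at 500 bp, 3 at 2 kb, 3 with curated TSS and 13 with the cut lists. Among them, Col11a2 and Col8a2 had no promoter site at 500 bp, and Col5a3, Col9a3, Col11a2, Col12a1, Lama3 and Lama5 had none in the cut lists. With 1 list per stage no sample could be left out, and unknown depth limits every count.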
